A study of Mus musculus with 4 samples.

Results

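The Zbtb genes encode transcription factors with an N-terminal BTB domain, through which they pair and recruit corepressors, and a row of zinc fingers that read DNA. Members were all genes whose mouse symbol is Zbtb followed by a digit, and 41 of the 39179 gene identifiers in the count files met this rule. A further gene of the annotation with such a symbol, the antisense transcript Zbtb11os1, was not analysed here. All 41 are annotated as protein coding. Zbtb8os matches by its name alone, since it encodes the tRNA ligase factor archease and not a BTB zinc finger protein. The RNA was from T cells with the transgenic OT-II receptor, which sees an ovalbumin peptide, after transfer into C57BL/6 mice given nitrophenol-coupled ovalbumin under the skin. On day 8 these Thy-1.1+ cells were sorted from pooled inguinal nodes as follicular helper T cells (Tfh, CD44hi CXCR5+ PD-1+) or as non-Tfh cells (CXCR5- PD-1-). Each group has 2 libraries, called T32 and T53, names whose meaning is not given. Both groups carry the same receptor and come from pooled nodes. The labels give no age for the mice and do not state that the libraries came from separate animals, so p-values measure the spread between these 4 libraries, which may be technical.

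In T cells this family is known mainly from a few members. Zbtb7b (ThPOK) commits thymocytes to the CD4 lineage, and its relative Zbtb7a (LRF) shares part of that task. Zbtb16 (PLZF) directs the innate-like program of NKT cells, and Zbtb17 (Miz-1) is a partner of Myc that lymphocyte progenitors need. Bcl6, the factor that directs the Tfh fate, belongs to the same protein family under another name.

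On GRCm38, the libraries held 12354113 (Tfh T32), 5725358 (Tfh T53), 13360563 (non-Tfh T32) and 8636056 (non-Tfh T53) counts on genes, so that a single count in a library stands for between 0.0748 and 0.175 CPM, the count scaled to a common library size. Cxcr5 averaged 730 ± 25.1 CPM in Tfh cells, against 54.3 ± 2.40 CPM in non-Tfh cells (SD, n = 2 each), as the sort on that protein sets. Of the markers of other cells, the B cell genes Ms4a1 and Cd79a were near 0, each at most 0.899 CPM in any library. The summed CPM of 12 B cell markers was 145 and 141 in Tfh cells, against 11.9 and 21.0 in non-Tfh cells, most of it from Cd22, and Cd22 and Pax5, the 2 of these genes that were tested, were both called higher. The 11 T cell markers summed to 8988 to 10068 CPM in Tfh cells, against 8286 to 9011 CPM in non-Tfh cells. The 8 dendritic cell markers summed to 2.60 and 3.14 CPM in Tfh cells, against 3.35 and 6.97 CPM in non-Tfh cells, and Clec9a and Siglech had no counts. Cd8a, the CD8 lineage marker, had 0 CPM in both Tfh libraries and 0.149 and 0 CPM in the non-Tfh libraries, while Cd8b1 was between 3.60 and 6.20 CPM in every library. Of the other lists, germinal centre B cell markers summed to 104 and 114 CPM in Tfh cells, against 45.3 and 35.9 CPM in non-Tfh cells, nearly all from Fas and S1pr2. Plasma cell markers summed to 227 and 174 CPM in Tfh cells, against 283 and 286 CPM in non-Tfh cells, mostly from Irf4 and Xbp1. NK and ILC markers summed to 67.1 and 74.2 CPM in Tfh cells, against 36.6 and 45.3 CPM in non-Tfh cells, with Ncr1 and Klra8 at 0 counts. Macrophage and monocyte markers summed to between 2.46 and 6.29 CPM, and gamma delta T cell, granulocyte and erythroid markers to at most 0.562 CPM. Stromal and endothelial markers summed to between 212 and 237 CPM, nearly all from Pecam1.

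Promoters of the 2 members that changed and of a pair of members that lie back to back are shown to set sequence beside level. Only a single promoter is shown per gene, and some of these genes have others. All come from RefSeq on GRCm38.p6 and run from 250 bases before to 50 bases after an annotated start. RefSeq promoters were found for 36 of the 41 members, 49 windows in all. Zbtb18 (chr1:177442101-177442400, plus strand) is written with the ACATCTG core that its own protein is known to bind in capitals, and Zbtb32 (chr7:30598860-30599159, minus strand) with its CCAAT boxes in capitals. Zbtb25 (chr12:76369511-76369810, minus strand) and Zbtb1 (chr12:76370270-76370569, plus strand) are transcribed away from each other. Their GENCODE gene starts, which are not the RefSeq starts of these windows, lie 664 bases apart, and their GC boxes (GGGCGG on either strand) are in capitals.
Zbtb18: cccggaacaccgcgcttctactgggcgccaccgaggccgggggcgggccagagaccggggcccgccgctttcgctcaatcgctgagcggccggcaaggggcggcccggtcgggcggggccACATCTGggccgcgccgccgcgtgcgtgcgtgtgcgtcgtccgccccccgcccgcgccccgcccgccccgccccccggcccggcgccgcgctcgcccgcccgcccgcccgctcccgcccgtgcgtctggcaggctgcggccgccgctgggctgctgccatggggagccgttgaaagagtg
Zbtb32: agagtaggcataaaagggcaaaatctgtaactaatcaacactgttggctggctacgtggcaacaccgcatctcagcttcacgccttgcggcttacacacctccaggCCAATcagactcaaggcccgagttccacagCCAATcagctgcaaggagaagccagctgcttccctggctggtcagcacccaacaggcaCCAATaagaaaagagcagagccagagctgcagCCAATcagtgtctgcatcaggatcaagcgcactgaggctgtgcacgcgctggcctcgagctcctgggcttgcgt
Zbtb25: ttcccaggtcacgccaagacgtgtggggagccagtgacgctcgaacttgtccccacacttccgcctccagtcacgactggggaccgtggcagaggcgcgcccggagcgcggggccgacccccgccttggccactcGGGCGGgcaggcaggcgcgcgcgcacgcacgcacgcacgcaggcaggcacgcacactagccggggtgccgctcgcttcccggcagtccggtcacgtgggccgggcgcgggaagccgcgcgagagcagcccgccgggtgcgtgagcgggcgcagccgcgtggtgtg
Zbtb1: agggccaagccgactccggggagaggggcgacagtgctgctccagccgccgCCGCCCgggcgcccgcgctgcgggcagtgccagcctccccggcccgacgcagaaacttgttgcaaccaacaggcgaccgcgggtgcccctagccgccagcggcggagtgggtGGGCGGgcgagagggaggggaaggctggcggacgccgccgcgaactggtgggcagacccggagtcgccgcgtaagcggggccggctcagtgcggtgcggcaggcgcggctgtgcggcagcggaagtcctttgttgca

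These 4 windows differ in base composition. The Zbtb18, Zbtb25 and Zbtb1 windows shown held 51, 44 and 39 CG dinucleotides, and the Zbtb32 window shown held 10. Windows not shown held 1 to 3 for Zbtb18, 51 for Zbtb25 and 3 for Zbtb32. Which start these T cells use was not tested. The median was 25 over all 49 windows of members and 21 over the 11113 windows of genes tested here. The Zbtb32 window shown held 4 CCAAT boxes (CCAAT on either strand), and 1.06% of all 32851 windows held as many. The other Zbtb32 window (chr7:30592893-30593192) held none. The ACATCTG core occurred once in the Zbtb18 window shown, and 4.43% of all windows held at least 1 match on either strand. Among members, a second Zbtb18 window and the Zbtb46 window also held it. GC boxes occurred in 67.3% of windows of members and in 63.2% of windows of genes tested. The letters TTCCTAGAA, the Bcl6 core, were in 0.411% of all windows and in none of the members' windows, and the cyclic AMP element TGACGTCA was in 1.79% of all windows and, among members, in those of Zbtb11 and Zbtb21.

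The family was present across a wide range of levels. Levels between genes are given as TPM, counts per kilobase of exon scaled to a common total, because long genes gather more reads. Averaged over the 4 libraries, 24 members reached 10 TPM, 12 lay between 1 and 10 TPM and 5 were under 1 TPM. The median of the 37 members that passed the filter on low counts was 16.7 TPM, against 18.01 TPM for all 11702 genes that passed. Zbtb7b, the CD4 lineage factor, was the most abundant member, with 70.7 and 74.3 TPM in Tfh cells, against 95.6 and 106 TPM in non-Tfh cells. Zbtb1, needed for lymphocyte development, followed with 39.8 and 51.3 TPM in Tfh cells, against 39.3 and 49.5 TPM in non-Tfh cells. Zbtb7a had 35.1 and 42.9 TPM in Tfh cells, against 39.3 and 45.9 TPM in non-Tfh cells. Zbtb4, a reader of methylated DNA, averaged 35.6 TPM and Zbtb11, a factor needed by neutrophils in zebrafish, averaged 33.4 TPM. The ranges over the 4 libraries of Zbtb1, Zbtb7a, Zbtb4 and Zbtb11 overlapped, and that of Zbtb7b lay above all of them. With the longest transcript in place of all exons as the length, Zbtb7b stayed first at 95.1 TPM and Zbtb11 moved to 43.0 TPM, above Zbtb1 at 38.3 TPM. Exons shared with other genes make some levels uncertain. Of the 41 members 16 overlapped an exon of another gene of the files, 12 of them on the opposite strand, and the sources used here do not say whether counting used strand.

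**Figure D1:**
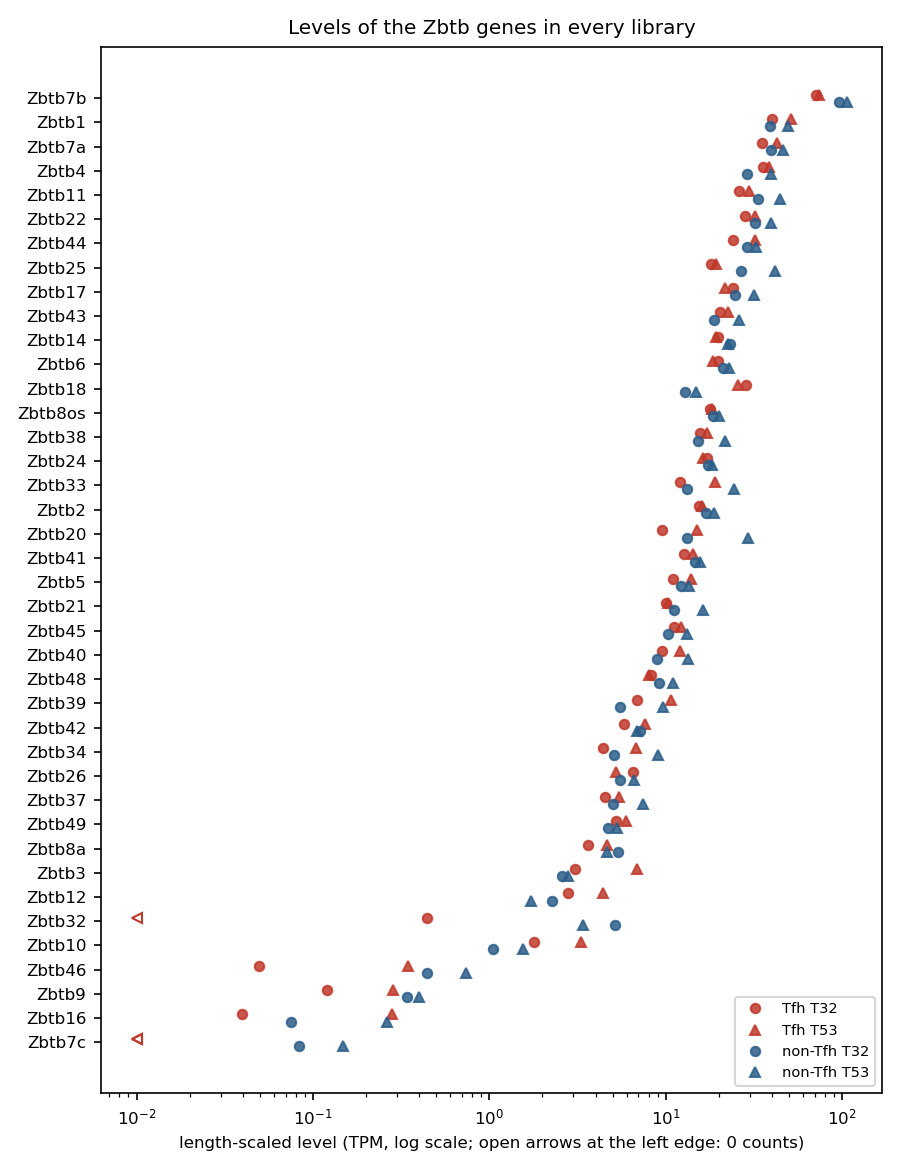
Length-scaled level (TPM, log axis) of the 40 members with any count, 1 point per library, Tfh in red and non-Tfh in blue, T32 as circles and T53 as triangles. Zbtb7b is highest in all 4 libraries and Zbtb16, Zbtb7c and Zbtb9 are the lowest.

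Of the 37 members tested, 1 was higher and 1 lower in Tfh cells at an adjusted p of 0.05 (edgeR quasi-likelihood test, adjusted over all 11702 genes). That is 5.41% of the members tested, against 8.49% of all genes tested (4.47% higher and 4.02% lower). The 2 members were Zbtb18, which was higher, and Zbtb32, which was lower. At an unadjusted p under 0.05 there were 6 members, 2 higher and 4 lower, or 16.2% of those tested against 22.0% of all genes. The median log2 fold change (Tfh over non-Tfh) was -0.042 over the members and -0.0054 over all genes, and the median absolute value was 0.16 and 0.22. For 15 members the CPM of both Tfh libraries lay outside the range of the non-Tfh libraries, 7 above and 8 below. That is 40.5% of those tested, against 52.2% of all genes (26.6% above and 25.6% below). The approximate 95% interval of the fold change lay inside a 2-fold change in both directions for 29 members. It reached past 2-fold for 6 members that did not pass the test, so the data on these few leave larger differences possible.

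**Figure D2:**
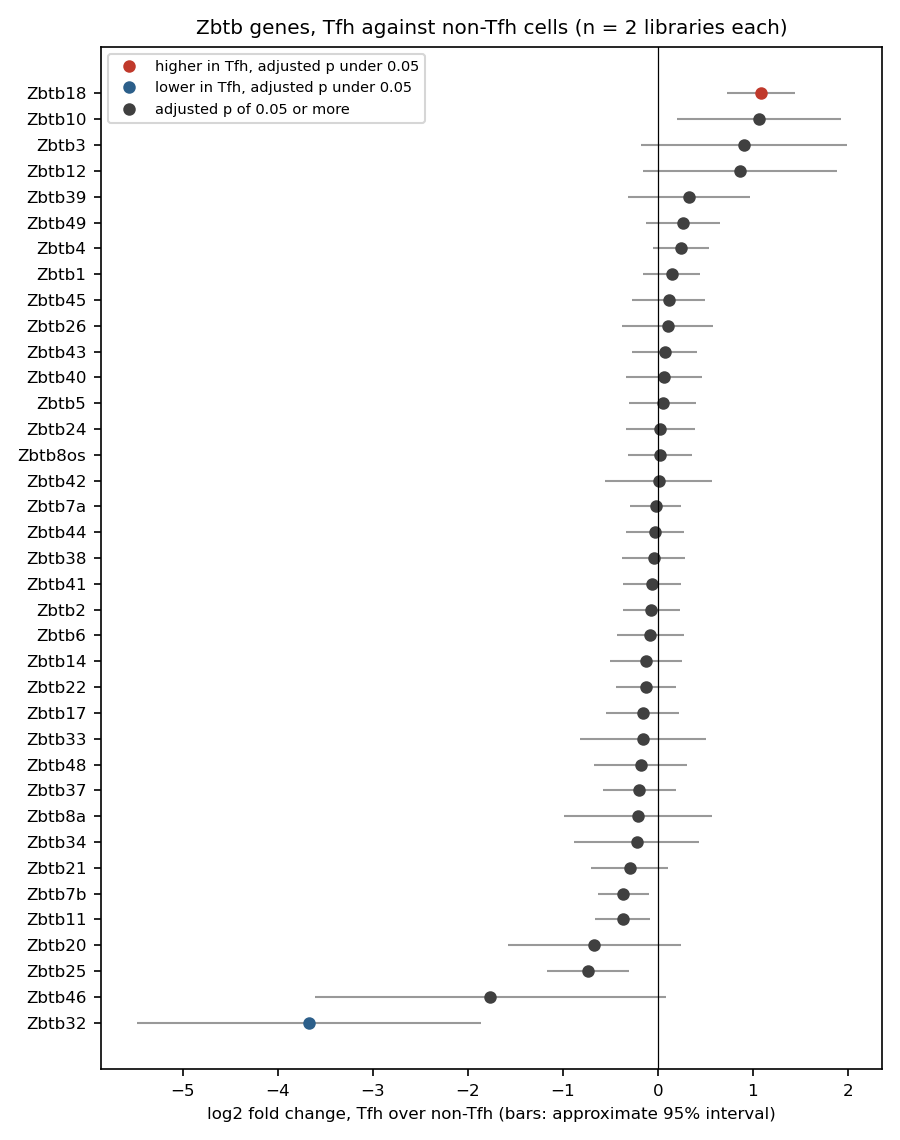
Log2 fold change of the 37 tested members, Tfh over non-Tfh, with approximate 95% intervals, sorted from highest to lowest. Zbtb18 (1.09) and Zbtb32 (-3.67) passed the adjusted threshold, and most other members sit near 0.

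Zbtb18 (ENSMUSG00000063659, GRCm38 chromosome 1, 177442351 to 177450764) encodes RP58, a repressor known from the developing cortex that reads E-box-like sites. It measured 69.5 and 55.9 CPM in the Tfh libraries and 29.8 and 29.5 CPM in the non-Tfh libraries. Both Tfh libraries were well above both non-Tfh libraries, which hardly differed from each other. The means were 62.7 ± 9.65 CPM in Tfh cells, against 29.6 ± 0.243 CPM in non-Tfh cells (SD, n = 2 each), a 2.12-fold rise (log2 fold change 1.09 ± 0.149 SE, edgeR adjusted p = 0.00999). The log2 difference was 1.22 within T32 and 0.92 within T53. The call held with each library left out in turn, with adjusted p between 0.00844 and 0.0346. On the length scale Zbtb18 had 28.4 and 25.7 TPM in Tfh cells, against 12.9 and 14.9 TPM in non-Tfh cells.

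Zbtb32 (ENSMUSG00000006310, chromosome 7, 30589681 to 30598909) encodes a repressor, also called ROG or PLZP, that activated lymphocytes induce and that is known to restrain Gata3 and cytokine genes. It had 5 and 0 counts in the Tfh libraries and 61 and 23 counts in the non-Tfh libraries, which is 0.419 and 0 CPM against 4.54 and 2.59 CPM. The groups did not overlap, and the gene was scarce in both. The means were 0.209 ± 0.296 CPM in Tfh cells, against 3.56 ± 1.39 CPM in non-Tfh cells (SD, n = 2 each), and the gene fell by 3.67 ± 0.752 SE on the log2 scale (edgeR adjusted p = 0.0351). From the pooled counts, 5 against 84, it was 13.8-fold lower in Tfh cells, with an exact 95% counting interval of 5.69 to 43.6. That interval leaves out the spread between libraries. The approximate 95% interval of the edgeR fit was -5.48 to -1.86 on the log2 scale. The call was lost without Tfh T53 (log2 fold change -3.06, adjusted p = 0.0552) and without non-Tfh T32 (-3.19, adjusted p = 0.101). Without Tfh T32 the remaining Tfh library has no counts. A floor of 3 counts in that library, 0.524 CPM, lies 6.80-fold below the non-Tfh mean of 3.56 CPM. The spread between the non-Tfh libraries is not part of that value. Gata3 itself measured 45.5 and 54.0 CPM in Tfh cells, against 58.6 and 61.0 CPM in non-Tfh cells and did not pass the test (log2 fold change -0.27 ± 0.134, edgeR adjusted p = 0.309).

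The 4 other members with an unadjusted p under 0.05 were Zbtb25, Zbtb7b, Zbtb11 and Zbtb10, none of which passed after adjustment in the fit on group alone. Each ran in 1 direction within T32 and within T53. Zbtb25, described in T cells as a repressor of NFAT-driven genes, measured 22.5 and 21.5 CPM in Tfh cells, against 31.6 and 41.9 CPM in non-Tfh cells. Its groups did not overlap, and the spread lay in the non-Tfh libraries (log2 fold change -0.73 ± 0.18, edgeR adjusted p = 0.0593). Its log2 fold change was -0.92 without non-Tfh T32, -0.52 without non-Tfh T53, -0.77 without Tfh T32 and -0.69 without Tfh T53. Its back-to-back neighbour Zbtb1, whose window is shown above, measured 193 and 222 CPM in Tfh cells, against 180 and 195 CPM in non-Tfh cells. Those ranges overlapped (log2 fold change 0.15 ± 0.126, edgeR adjusted p = 0.581). The difference between the 2 neighbours was not tested. Zbtb11 measured 77.0 and 78.6 CPM in Tfh cells, against 93.7 and 107 CPM in non-Tfh cells (log2 fold change -0.37 ± 0.12, adjusted p = 0.132). Zbtb10, known as a repressor of Sp factor genes, measured 5.28 and 8.73 CPM in Tfh cells, against 2.91 and 3.71 CPM in non-Tfh cells (log2 fold change 1.06 ± 0.358, adjusted p = 0.14), and its interval of 0.20 to 1.92 spans small and large differences.

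**Figure D3:**
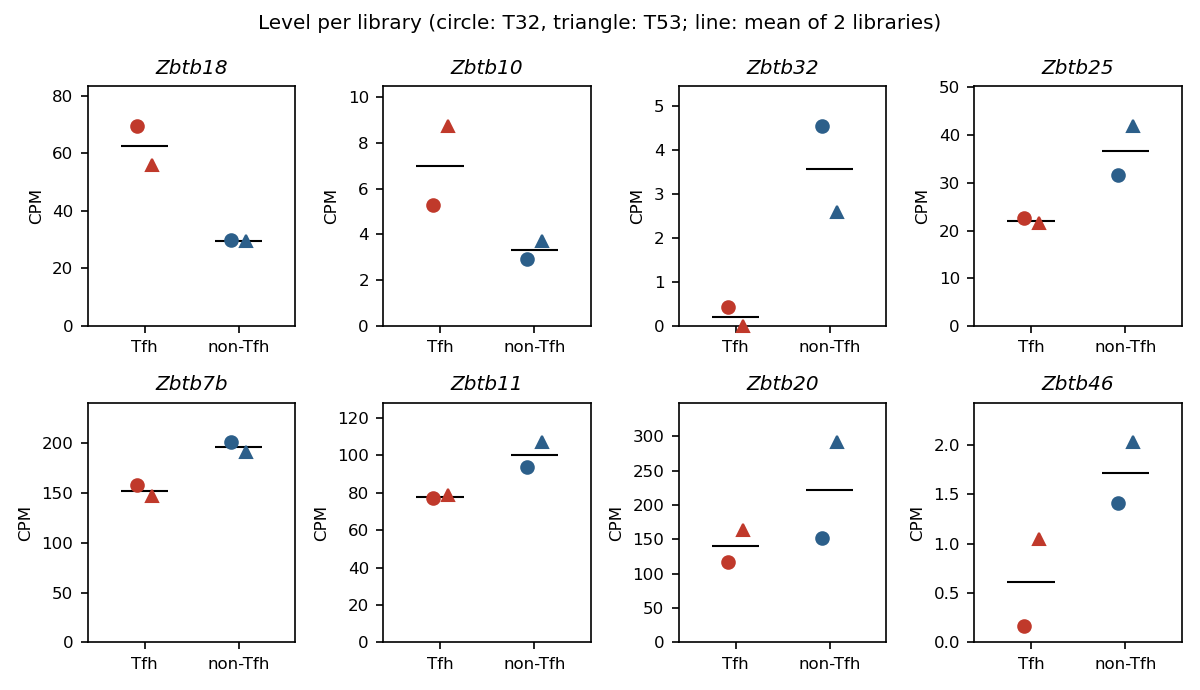
CPM of 8 members in each library, Tfh on the left and non-Tfh on the right of each panel, circles for T32, triangles for T53 and a line at the mean of the 2 libraries. Zbtb18 and Zbtb10 lie higher in both Tfh libraries, and Zbtb32, Zbtb25, Zbtb7b, Zbtb11 and Zbtb46 lie lower in both. Only Zbtb18 and Zbtb32 passed the adjusted threshold. Zbtb20 overlaps, and Zbtb20 and Zbtb46 spread widely within a group.

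The lineage factor Zbtb7b measured 158 and 147 CPM in Tfh cells, against 201 and 191 CPM in non-Tfh cells. Both Tfh libraries were lower, and the difference did not pass in the fit on group alone (152 ± 7.38 and 196 ± 6.93 CPM, SD, n = 2 each, log2 fold change -0.36 ± 0.113, edgeR adjusted p = 0.116). Its interval, -0.63 to -0.090, lies inside a 2-fold change. Zbtb7a measured 95.2 and 104 CPM in Tfh cells, against 101 and 101 CPM in non-Tfh cells (log2 fold change -0.021, interval -0.29 to 0.25). The third of these relatives, Zbtb7c, had no counts in Tfh cells and 2 counts in each non-Tfh library. Of the 13 genes listed as the CD4 lineage circuit around Zbtb7b, 12 were tested, 1 was higher and 2 were lower. Over all genes tested 8.49% were called. The median log2 fold change of the list was 0.20. Runx3, the CD8 lineage factor that ThPOK opposes, was 13.7 and 6.11 CPM in Tfh cells, against 56.7 and 80.5 CPM in non-Tfh cells (-2.72 ± 0.383, adjusted p = 0.0181). Satb1, a chromatin organiser, was the other gene that fell (-1.55 ± 0.16), and Tox, a nuclear factor needed for CD4 development, rose (1.37 ± 0.174). Cd4 measured 1046 and 1062 CPM in Tfh cells, against 927 and 915 CPM in non-Tfh cells and did not pass (adjusted p = 0.467).

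Zbtb16 and Zbtb46, known from other cell types, were scarce. Zbtb16, the NKT factor, had 1 and 3 counts in Tfh cells, against 2 and 4 counts in non-Tfh cells, too few to test. Of the 13 tested genes listed here for an innate-like program, 4 were higher and 6 lower, against 8.49% called over all genes. Their median was -0.65, and DESeq2 called 10 of them and limma-voom 8. This list was chosen with earlier results of these data known, and a link of its changes to Zbtb16 was not tested. The genes that rose were the cytokine gene Il4, the NK receptor genes Klrb1c and Cd160, and Egr2. Among those that fell were Il18r1 (14.7 and 5.07 CPM in Tfh cells, against 186 and 144 CPM in non-Tfh cells) and Id2 (11.9 and 12.2 CPM in Tfh cells, against 75.9 and 92.6 CPM in non-Tfh cells). Zbtb46, a marker of classical dendritic cells, had 2 and 6 counts in Tfh cells, against 19 and 18 counts in non-Tfh cells. It was lower in both Tfh libraries without passing the test (log2 fold change -1.76 ± 0.767, edgeR adjusted p = 0.248, interval -3.61 to 0.089). The summed dendritic cell markers were highest in non-Tfh T53, as given above. That sum includes Zbtb46, so it is no separate measure of such cells. Of the other markers, Flt3 measured 1.93 and 1.75 CPM in Tfh cells, against 1.27 and 1.80 CPM in non-Tfh cells, and overlapped. Itgax and Xcr1 were highest in non-Tfh T53, at 1.80 and 1.12 CPM. The part of dendritic cells in the Zbtb46 difference was not tested.

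Zbtb20, which long-lived plasma cells need, measured 117 and 163 CPM in Tfh cells, against 152 and 291 CPM in non-Tfh cells. The groups overlapped, and the T53 library was the higher in each. Between libraries of the same number Zbtb20 was lower in Tfh cells, by a log2 difference of -0.38 within T32 and -0.84 within T53, and it did not pass in the fit on group alone (140 ± 32.8 and 222 ± 98.6 CPM, SD, n = 2 each, log2 fold change -0.67 ± 0.353, edgeR adjusted p = 0.371). With 1 library left out, the log2 fold change of Zbtb20 was -1.06 without non-Tfh T32 and -0.12 without non-Tfh T53. It was -0.43 without Tfh T32 and -0.91 without Tfh T53, so its size varied with the libraries kept. The 7 plasma cell markers, whose sums are given above, did not all run one way. Sdc1 was at 0.922 and 1.57 CPM in Tfh cells, against 0.0745 and 0.225 CPM in non-Tfh cells. Prdm1 was at 1.26 and 0.349 CPM in Tfh cells, against 6.78 and 6.41 CPM in non-Tfh cells. It was called lower (log2 fold change -2.84 ± 0.481, edgeR adjusted p = 0.0188). Irf4, Jchain and Mzb1 averaged lower in Tfh cells without being called, Xbp1 averaged higher without being called, and Tnfrsf17 had no counts. The part of these cells in the result was not tested. In bulk samples fewer cells with a transcript and less of it per cell cannot be told apart, here and for the members above.

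The members that bind methylated DNA did not differ between the groups beyond the test's threshold. Zbtb4 measured 116 and 111 CPM in Tfh cells, against 88.3 and 103 CPM in non-Tfh cells, without overlap (log2 fold change 0.25 ± 0.123, edgeR adjusted p = 0.316). Zbtb38 measured 72.7 and 71.4 CPM in Tfh cells, against 66.8 and 81.8 CPM in non-Tfh cells (-0.042, interval -0.37 to 0.29). Zbtb33 (Kaiso) measured 24.6 and 34.4 CPM in Tfh cells, against 25.3 and 40.2 CPM in non-Tfh cells, with T53 higher in each group. Of 9 tested methyl-CpG readers, these 3 included, none was called by edgeR, DESeq2 or limma-voom and 0 had an unadjusted p under 0.05 in edgeR. Over all genes tested, edgeR called 8.49%, and 22.0% had an unadjusted p under 0.05. With 9 genes, a count of 0 called is near that share. The list's median was -0.042.

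Zbtb17, the Myc partner Miz-1, measured 37.4 and 29.7 CPM in Tfh cells, against 35.9 and 39.5 CPM in non-Tfh cells (log2 fold change -0.16, interval -0.54 to 0.23). Of 12 tested genes around Myc and Miz-1, 2 were higher and 1 lower, against 8.49% called over all genes, with a median of -0.036. Socs1, a cytokine signalling inhibitor that Miz-1 represses in lymphocyte progenitors, was 102 and 81.9 CPM in Tfh cells, against 29.7 and 39.1 CPM in non-Tfh cells (1.43 ± 0.182). The cell cycle inhibitor Cdkn2c rose (1.84 ± 0.224) and the IL-7 receptor gene Il7r fell (-5.15 ± 0.443). Myc measured 21.4 and 12.1 CPM in Tfh cells, against 34.6 and 36.5 CPM in non-Tfh cells and did not pass (-1.05 ± 0.26, edgeR adjusted p = 0.0634). Zbtb24, mutated in a human immunodeficiency with centromere instability, measured 35.2 and 29.7 CPM in Tfh cells, against 33.6 and 30.2 CPM in non-Tfh cells (0.029, interval -0.34 to 0.39). None of the 6 genes of its list, itself included, was called by edgeR, DESeq2 or limma-voom, and 0 had an unadjusted p under 0.05. Their median was -0.056. Its known target Cdca7 measured 31.6 and 19.2 CPM in Tfh cells, against 33.5 and 16.3 CPM in non-Tfh cells. Zbtb48, which trims telomeres, measured 10.5 and 9.08 CPM in Tfh cells, against 11.0 and 11.4 CPM in non-Tfh cells (-0.18, interval -0.67 to 0.31). None of 6 tested genes of the p53 and Arf axis, on which Zbtb7a, Zbtb4 and Zbtb5 are known to act, was called by edgeR, and their median was 0.14. In that list 2 genes, Bbc3 and Trp53inp1, had an unadjusted p under 0.05 in edgeR, both with positive fold changes. DESeq2 called 1 (Trp53inp1) and limma-voom 0. For this list and that of Zbtb24, the shares over all genes tested were 8.49% called by edgeR and 22.0% with an unadjusted p under 0.05.

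Some members share a locus. Zbtb6 and Zbtb26 on chromosome 2 have GENCODE gene starts 36 bases apart on the same strand and share 449 bases of exon. How reads in the shared exon were counted is not given in the sources used here. Their RefSeq windows lie further apart, at chr2:37430870-37431169 for Zbtb6 and chr2:37443123-37443422 for Zbtb26. Zbtb6 measured 40.1 and 33.5 CPM in Tfh cells, against 40.5 and 37.5 CPM in non-Tfh cells, and Zbtb26 measured 24.6 and 17.6 CPM in Tfh cells, against 19.5 and 20.2 CPM in non-Tfh cells. Their fold changes were close to 0 (-0.078 and 0.11 on the log2 scale). The GENCODE gene starts of Zbtb34 and Zbtb43 lie 37235 bases apart on the same chromosome. Zbtb34 measured 13.7 ± 3.06 CPM in Tfh cells, against 15.9 ± 4.69 CPM in non-Tfh cells (SD, n = 2 each). Zbtb43 measured 42.2 ± 0.335 CPM in Tfh cells, against 40.2 ± 5.01 CPM in non-Tfh cells (SD, n = 2 each). Zbtb8a overlaps Zbtb8os by 264 bases of exon on the opposite strand. Zbtb8a measured 3.35 and 3.84 CPM in Tfh cells, against 4.69 and 3.48 CPM in non-Tfh cells, and Zbtb8os measured 32.1 and 29.3 CPM in Tfh cells, against 31.4 and 29.0 CPM in non-Tfh cells. Zbtb8b, beside them on chromosome 4, had no counts in any library. On chromosome 17 Zbtb22 and Zbtb12 lie in the region of the major histocompatibility complex. Zbtb22 measured 30.2 and 30.6 CPM in Tfh cells, against 32.2 and 33.9 CPM in non-Tfh cells (-0.12, interval -0.44 to 0.20), and its exons overlap 149 bases of Tapbp. Zbtb12 was scarce, with 2.26 and 3.14 CPM in Tfh cells, against 1.71 and 1.12 CPM in non-Tfh cells (0.87 ± 0.422, edgeR adjusted p = 0.302).

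Most of the other members had small fold changes. Zbtb2, Zbtb5, Zbtb14, Zbtb21, Zbtb37, Zbtb39, Zbtb40, Zbtb41, Zbtb42, Zbtb44, Zbtb45 and Zbtb49 had log2 fold changes from -0.29 (Zbtb21) to 0.33 (Zbtb39), and none passed the test. Zbtb44 was the most abundant of them, at 97.9 ± 11.7 CPM in Tfh cells, against 99.4 ± 2.59 CPM in non-Tfh cells (SD, n = 2 each). Zbtb41 was even, with 42.5 and 42.4 CPM in Tfh cells, against 46.2 and 42.2 CPM in non-Tfh cells. Zbtb3 had few counts, 2.43 and 4.89 CPM in Tfh cells, against 1.94 and 1.80 CPM in non-Tfh cells. Both Tfh libraries were higher, and the difference did not pass (log2 fold change 0.91 ± 0.448, edgeR adjusted p = 0.309, interval -0.17 to 1.99). Zbtb9 had 2 and 2 counts in Tfh cells, against 6 and 4 counts in non-Tfh cells and was not tested. The summed level of all 41 members was 1622 and 1691 CPM in Tfh cells, against 1651 and 1888 CPM in non-Tfh cells. Without Zbtb20 it was 1506 and 1528 CPM in Tfh cells, against 1499 and 1597 CPM in non-Tfh cells.

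Some members differed between the 2 libraries of a group as much as between the groups. The median absolute log2 difference between T53 and T32 over the members was 0.20 in Tfh cells, against 0.19 in non-Tfh cells. Over all genes tested it was 0.19 in Tfh cells, against 0.21 in non-Tfh cells. Of the 36 tested members with counts in every library, 12 were higher in T53 than in T32 in both groups and 8 were lower in both. Zbtb20 was higher in T53 by 0.48 in Tfh cells, against 0.94 in non-Tfh cells on the log2 scale. Zbtb33, Zbtb34 and Zbtb39 were also higher in T53, by 0.46 to 0.48 in Tfh cells, against 0.59 to 0.67 in non-Tfh cells. Among the others, Zbtb14 and Zbtb24 were lower in T53 in both groups.

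**Figure D4:**
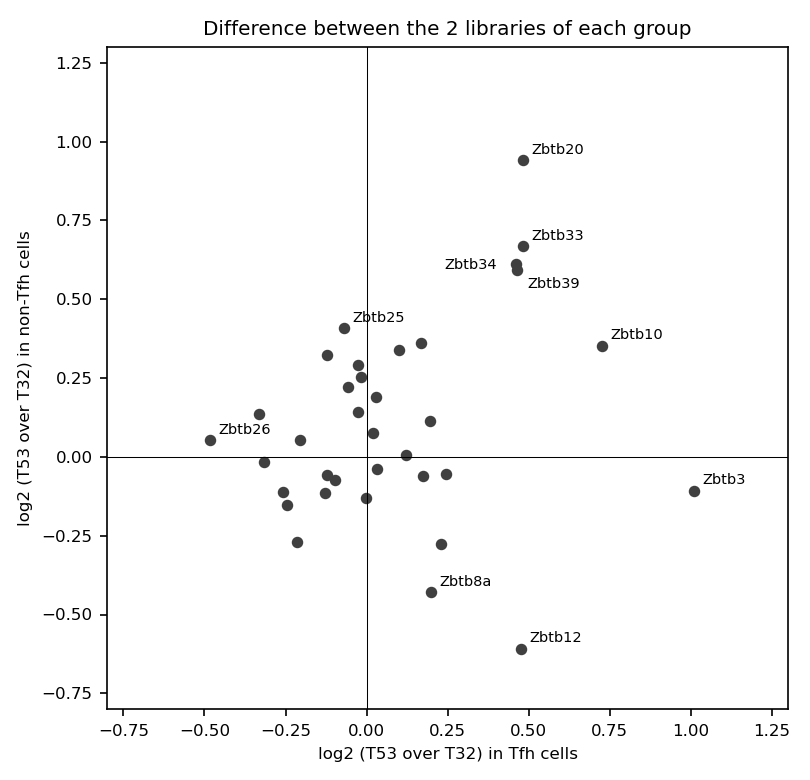
Log2 ratio of T53 over T32 within Tfh cells (horizontal) and within non-Tfh cells (vertical) for 35 members, each point a gene. Zbtb20, Zbtb33, Zbtb34, Zbtb39 and Zbtb10 lie in the upper right, higher in T53 in both groups. Zbtb46, with 2 counts in Tfh T32, is left out.

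The BTB factors with other names and the proteins that the BTB domain recruits give the setting for the family. Of 10 such BTB genes 8 were tested. Bcl6 was called by edgeR, DESeq2 and limma-voom, and DESeq2 called Gzf1 as well. Bcl6 measured 249 and 352 CPM in Tfh cells, against 34.9 and 45.3 CPM in non-Tfh cells, a 7.51-fold rise (log2 fold change 2.91 ± 0.223, edgeR adjusted p = 0.00187). The median of the 8 was 0.0024. Gzf1, a repressor named for its induction by GDNF, measured 38.6 and 56.1 CPM in Tfh cells, against 23.5 and 28.7 CPM in non-Tfh cells and did not pass in edgeR (0.85 ± 0.214, adjusted p = 0.0647). Patz1, which acts on the Cd8 and Zbtb7b loci, measured 46.7 and 47.3 CPM in Tfh cells, against 49.3 and 59.0 CPM in non-Tfh cells. Of the 19 tested corepressor and cullin genes none was called by edgeR, DESeq2 or limma-voom. In edgeR 1 (Bcorl1) had an unadjusted p under 0.05, and the median of the 19 was 0.070. For both lists, the shares over all genes tested were 8.49% called by edgeR and 22.0% with an unadjusted p under 0.05. Ncor1, a nuclear receptor corepressor, measured 529 and 595 CPM in Tfh cells, against 556 and 619 CPM in non-Tfh cells, and Bcor, which binds the Bcl6 BTB domain, measured 209 and 248 CPM in Tfh cells, against 162 and 206 CPM in non-Tfh cells. Cul3, which uses BTB proteins as ubiquitin ligase adaptors, measured 169 and 164 CPM in Tfh cells, against 198 and 185 CPM in non-Tfh cells (log2 fold change -0.20, adjusted p = 0.379).

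**Figure D5:**
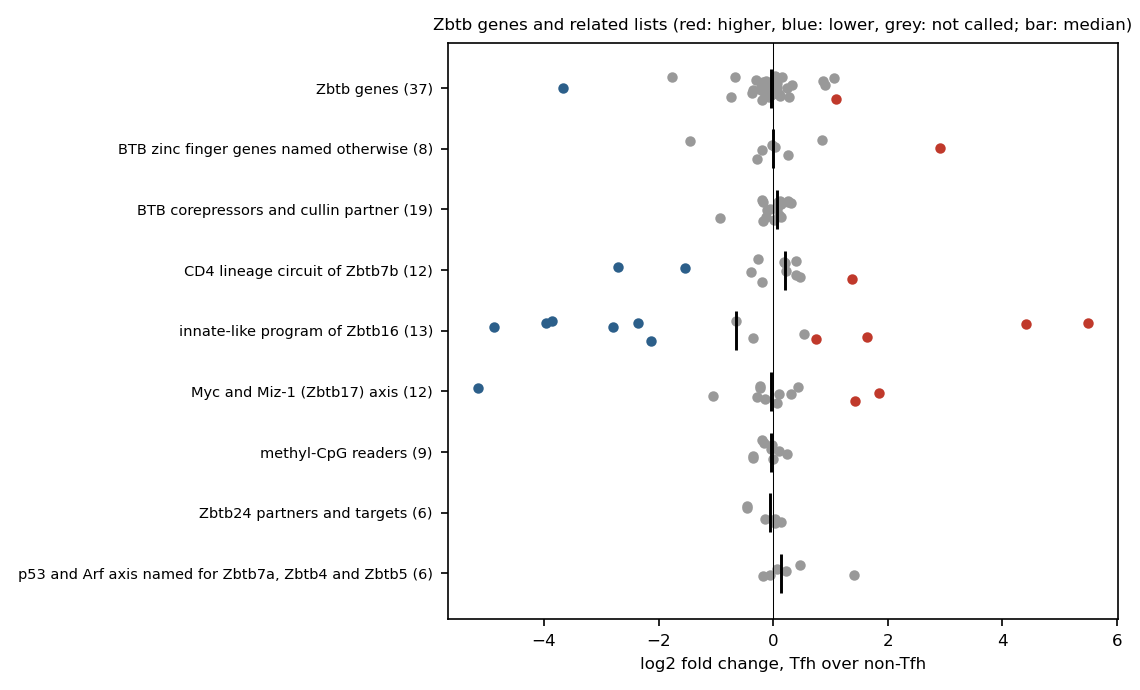
Log2 fold change, Tfh over non-Tfh, of the tested Zbtb genes and of 8 related lists, 1 point per gene, red where higher and blue where lower at an adjusted p of 0.05, with a bar at each median. Most Zbtb genes and all corepressor genes are uncalled, and Bcl6 stands apart at 2.91 among the BTB genes of other names.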

How the data were processed

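RNA of 4 sorted T cell samples was sequenced in read pairs from stranded total RNA libraries, per the labels' protocols. The values are read counts for each Ensembl gene as deposited by the authors, with no scaling. TopHat2, Bowtie2 and HTSeq are named, with GRCm38 (mm10), per the submitters' processing notes, and the annotation release and strand setting are not given in the sources used here. Symbols, exons and positions came from GENCODE M21 on GRCm38, which named 37607 of 39179 identifiers; the 1572 others held 0.209 to 0.228% of counts and stayed in the totals.

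Genes kept by filterByExpr were scaled by TMM (the trimmed mean of M-values), and Tfh was tested against non-Tfh with edgeR 4.0.16 in R 4.3.3 (quasi-likelihood, robust, group alone, two-sided, Benjamini-Hochberg over 11702 genes, threshold 0.05). The biological coefficient of variation was 0.156. CPM are TMM-scaled. Each standard error is the size of the log2 fold change divided by the root of its F value, and the approximate 95% intervals follow from them with the moderated degrees of freedom. Intervals and floors on counts cover counting error only. TPM used all annotated exons of a gene. The code was tested on simulated counts.

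The members, 8 gene lists and 12 marker lists were chosen with earlier results of these data known. Named genes were the called members, the 5 most abundant per length, 16 with a role in T cells or elsewhere, those with few counts and up to 4 called genes per list. Other list genes, such as Gata3, Myc, Cd4 and Gzf1, and members named for a shared locus or their spread were chosen after their values were seen. The alternatives were DESeq2 1.42.0, limma-voom (limma 3.58.1), upper-quartile and RLE scaling, other count filters, a fit that is not robust, the library number as a block, and each library left out. Protein features of the members were not analysed here. Tables and figures used Python 3.11.15 with pandas 2.3.3, scipy 1.17.1 and matplotlib 3.10.9.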

Additional observations from a re-analysis of the deposited data

How the results depend on the processing

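Zbtb18 passed under all 12 alternatives, with log2 fold changes from 0.92 to 1.25. Zbtb32 passed under 9 of the 11 in which it could be tested. When 5 CPM in at least 2 libraries were asked of a gene it was not tested, so 0 members were lower. With a library left out, 1 member was higher and 0 to 2 were lower; the value of 0 was without Tfh T53 and that of 2, Zbtb20 and Zbtb25, without non-Tfh T32. Over all genes these fits called 298 to 454 higher and 247 to 435 lower, lowest without Tfh T53. Without a count filter 2 members were higher and 2 lower (Zbtb10 and Zbtb25 besides the called pair), and 1006 genes were higher and 980 lower. With a replicate block for the library number 2 members were higher and 5 lower, adding Zbtb10, Zbtb25, Zbtb7b, Zbtb11 and Zbtb20 (adjusted p = 0.0224 for Zbtb20), and 1069 genes were higher and 1051 lower, 18.1% of those tested. No label ties the libraries of one number; the deviations of same-numbered libraries from their group means had a correlation of 0.368 across genes, with 2 pairs. The cause of these changes was not tested.

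Uncalled log2 fold changes near 0 changed sign with a library left out: Zbtb7a lay between -0.067 and 0.044 (positive without Tfh T32), Zbtb17 between -0.34 and 0.0042 (positive without Tfh T53), Zbtb33 between -0.46 and 0.20 (0.082 without Tfh T32, 0.20 without non-Tfh T53), Zbtb38 between -0.18 and 0.11 (positive without non-Tfh T53) and Zbtb24 between -0.10 and 0.15 (negative without Tfh T32 and, at -0.042, without non-Tfh T53). The mean sum over members was 1657 CPM in Tfh cells, against 1770 CPM in non-Tfh cells; without Zbtb1 it was 1449 and 1582 CPM, and without Zbtb20, a choice made after seeing the data, 1517 and 1548 CPM. Depth limits Zbtb16, Zbtb7c, Zbtb8b and Zbtb9, with 0 to 14 counts in all.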
